A study of Mus musculus with 15 samples.

Results

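The genes described are those for the subunits of oxidative phosphorylation, the 5 protein complexes of the inner mitochondrial membrane, measured by RNA-seq in tibial subchondral bone of mice. Members were taken by symbol, as protein-coding genes named Ndufa, Ndufb, Ndufc, Ndufs, Ndufv, Sdh, Uqcr, Cyc1, Cox4 to Cox8 or Atp5, together with the protein-coding genes of the mitochondrial genome. This gave 108 of the 55335 rows of the table, 95 encoded in the nucleus and 13 in the mitochondrial genome. The symbols brought in 8 Ndufaf genes, which encode assembly factors and no subunits, and Atp5s, which encodes a coupling factor; these 9 were kept apart, as were Cox6a2, Cox7a1 and Cox8b, the muscle isoforms of complex IV. Another 13 rows matched by symbol but were not protein coding and were left out.

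The bone came from 3 groups of male mice, operated on at 8 weeks of age and sampled 8 weeks later, with 5 libraries in each group. The first group carried Dmp1-Cre and floxed alleles of Pvalb, the parvalbumin gene (Dmp1-Cre; Pvalb fl/fl, here cKO), and had DMM, a destabilisation of the medial meniscus in which the medial meniscotibial ligament is cut. The second group was wild-type C57BL/6J mice with DMM, and the third was wild-type C57BL/6J mice with a sham operation in which the joint capsule was opened. The Dmp1 promoter that drives Cre is active mainly in osteocytes, so the allele was aimed at a subset of the cells in whole ground bone. Knockout mice with a sham operation were not analysed here, so the genotypes can be compared after DMM only, and a Cre effect cannot be told apart from the loss of Pvalb. The labels call the libraries biological replicates.

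Complexes I and II pass electrons from NADH and succinate to ubiquinone, complex III passes them on to cytochrome c, and complex IV to oxygen. Complexes I, III and IV pump protons, and complex V, the ATP synthase, uses the proton gradient to make ATP. The mitochondrial genome encodes a few core subunits of complexes I, III, IV and V, and the nuclear genome encodes the others, including every subunit of complex II. Several complex IV subunits come in a widely expressed form and in a form typical of heart and skeletal muscle.

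The values were FPKM, fragments per kilobase of transcript scaled to the mapped fragments of the library, which permit levels to be set side by side between genes per unit of length. FPKM sums ran from 375453 to 468423 per library, and the libraries' depths relative to one another, read from the smallest steps in their values, spanned 0.634 to 1.05; the absolute depth is unknown. Haemoglobin genes held 10.2% to 30.6% of the FPKM sum. The osteocyte gene Dmp1 was present in all 15 libraries at 21.4 to 99.6 FPKM. The summed level of 20 fast muscle genes ran from 549 to 3336 FPKM in cKO DMM, from 290.3 to 2751 in wild-type DMM and from 133 to 5009 in wild-type sham bone. Pvalb itself, which fast muscle also expresses, had 23.7 to 166 FPKM in cKO DMM, 33.0 to 375 in wild-type DMM and 15.8 to 490 in wild-type sham bone, so its level in whole bone did not separate the genotypes and gives no check of the labels. On the first principal component 3 libraries stood apart: replicates 1 and 4 of cKO DMM and replicate 3 of wild-type DMM. Results that rest on them are given with and without them.

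No member passed the test in any comparison. The test was limma's moderated test on log2(FPKM + 1), with p-values adjusted by Benjamini-Hochberg over the 13653 genes that had at least 1 FPKM in at least 5 libraries, and a threshold of 0.05. Of the 108 members 105 were tested; Cox7b2, Cox8c and a second identifier of Atp5o, each listed at 0 in every library or below the filter, were not. In cKO DMM against wild-type DMM 0 of 105 members passed, beside 1 gene of 13653 (0.00732%), and the smallest adjusted p of a member was 0.935. Against wild-type sham, 0 of 105 passed in cKO DMM, beside 4 genes (0.0293%), with a smallest adjusted p of 0.456. In the wild-type groups, DMM against sham, 0 of 105 passed, beside 0 genes (0%), with a smallest adjusted p of 0.216. The 3 comparisons share groups, cKO DMM, wild-type DMM and wild-type sham each serving in 2 of them, and are not independent.

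At an unadjusted p under 0.05 the members' counts also stayed small. Between cKO DMM and wild-type DMM 2 members were higher, where 1.11% of all genes were, and 1 was lower, where 2.15% were. Between cKO DMM and wild-type sham 4 were higher (5.84% of all genes) and 1 was lower (4.64%). Between wild-type DMM and wild-type sham 2 were higher (5.50% of all genes) and 0 were lower (1.43%). These shares of 105 members lie close to or under those of all genes.

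Between groups of 5 libraries, values that do not overlap give an exact two-sided permutation p of 0.00794, the smallest of the 252 arrangements. Only 1 member, Cox4i2, was lower in cKO DMM than in wild-type DMM without overlap, beside 0.249% of all genes, and 0 were higher (0.132%). Cox8a and Atp5a1 were higher in cKO DMM than in wild-type sham without overlap, beside 1.20% of all genes, and 0 members were lower (1.05%). Ndufa4l2 was higher in wild-type DMM than in wild-type sham without overlap, beside 1.48%, and 0 members were lower (0.308%).

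Cox6a2, Cox7a1 and Cox8b are located on chromosome 7, and their counterparts Cox6a1, Cox7a2 and Cox8a on chromosomes 5, 9 and 19. Their starts are shown because the isoforms of each pair went with different genes across the libraries. Each window holds 250 bases before and 50 after the transcription start, 5′ to 3′ on the strand of the gene, from RefSeq on GRCm38.p6: Cox7a1 at chr7:30183921-30184220 (plus strand), Cox8b at chr7:140900397-140900696 (minus), Cox6a1 at chr5:115348909-115349208 (minus), Cox7a2 at chr9:79759804-79760103 (minus) and Cox8a at chr19:7217567-7217866 (minus). Cox6a2 had no entry. Capitals mark matches, on either strand, to 5 short motifs: TGCGCA (part of the NRF1 motif, here called its core), CCGGAAG (GABP), AAGGTCA (the site of ERR receptors), CAGCTG (an E-box bound by muscle factors) and TATAAA (the core promoter box of that name).

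Cox7a1: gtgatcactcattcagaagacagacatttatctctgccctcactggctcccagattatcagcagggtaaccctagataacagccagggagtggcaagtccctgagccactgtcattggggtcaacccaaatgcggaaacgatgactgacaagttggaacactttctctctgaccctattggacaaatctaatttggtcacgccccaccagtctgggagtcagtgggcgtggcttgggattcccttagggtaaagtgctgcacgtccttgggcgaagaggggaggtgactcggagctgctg

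Cox8b: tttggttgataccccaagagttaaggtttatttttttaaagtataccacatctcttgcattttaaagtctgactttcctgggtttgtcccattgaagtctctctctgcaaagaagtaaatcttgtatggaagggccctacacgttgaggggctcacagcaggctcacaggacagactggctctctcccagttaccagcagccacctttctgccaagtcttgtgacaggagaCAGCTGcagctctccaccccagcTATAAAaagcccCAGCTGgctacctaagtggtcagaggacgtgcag

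Cox6a1: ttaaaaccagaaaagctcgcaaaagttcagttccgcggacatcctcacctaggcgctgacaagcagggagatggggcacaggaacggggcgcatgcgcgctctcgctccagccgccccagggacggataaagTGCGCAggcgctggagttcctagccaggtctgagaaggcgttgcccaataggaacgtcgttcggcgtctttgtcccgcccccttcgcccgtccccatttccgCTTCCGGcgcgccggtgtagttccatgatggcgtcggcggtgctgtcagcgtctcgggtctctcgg

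Cox7a2: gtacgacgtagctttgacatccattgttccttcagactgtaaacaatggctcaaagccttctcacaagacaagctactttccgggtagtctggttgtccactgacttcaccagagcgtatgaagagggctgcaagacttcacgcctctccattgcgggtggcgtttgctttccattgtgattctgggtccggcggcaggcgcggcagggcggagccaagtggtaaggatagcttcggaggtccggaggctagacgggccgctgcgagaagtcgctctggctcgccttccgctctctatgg

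Cox8a: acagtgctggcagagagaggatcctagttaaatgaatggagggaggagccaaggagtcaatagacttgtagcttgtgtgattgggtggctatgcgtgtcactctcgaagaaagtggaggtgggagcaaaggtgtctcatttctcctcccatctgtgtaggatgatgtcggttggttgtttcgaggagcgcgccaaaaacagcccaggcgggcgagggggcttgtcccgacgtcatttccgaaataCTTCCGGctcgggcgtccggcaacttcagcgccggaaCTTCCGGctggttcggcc

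Cox8b had 2 E-boxes and 1 TATA box, Cox6a1 had 1 NRF1 core and 1 GABP match, Cox8a had 2 GABP matches, and the Cox7a1 and Cox7a2 windows held none of the 5. No match overlapped another. Over 27025 promoters of this length, 8.06% held the NRF1 core, 9.12% the GABP letters, 4.66% the ERR letters, 16.1% the E-box and 14.2% the TATA letters. Among the 65 promoters of nuclear subunits in the table those shares were 26.2%, 23.1%, 12.3%, 7.69% and 9.23%. A match is a string of letters and shows no binding. Only these exact letters were searched, so other forms of the motifs are not marked, such as gcgcatgcgc in the Cox6a1 window.

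The muscle isoforms were the least even members across libraries and did not differ between groups beyond that spread. Cox6a2, the muscle form of subunit VIa, had 13.4, 8.31, 31.1, 22.9 and 37.3 FPKM in cKO DMM, 10.7, 14.8, 33.2, 9.11 and 6.67 in wild-type DMM and 12.4, 59.8, 30.2, 5.43 and 60.2 in wild-type sham bone. Both the highest and the lowest libraries were sham, and all 3 groups overlapped. On the opposite strand Cox6a2 overlaps Itgad (mean 4.62 FPKM), and no source used here says whether counting used strand.

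Cox7a1, the muscle form of subunit VIIa, had 3.62, 2.48, 7.20, 5.61 and 9.99 FPKM in cKO DMM, 3.03, 2.91, 11.2, 2.28 and 1.20 in wild-type DMM and 3.16, 19.7, 7.99, 0.614 and 13.5 in wild-type sham bone. Cox8b, the muscle form of subunit VIII, had 6.74, 4.36, 13.4, 10.4 and 17.1 FPKM in cKO DMM, 3.49, 3.81, 19.2, 2.99 and 1.49 in wild-type DMM and 3.13, 33.7, 12.3, 0.663 and 22.6 in wild-type sham bone. For both genes the groups overlapped, and wild-type sham replicates 2 and 4 were the highest and the lowest of the 15 libraries.

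The log2 differences in cKO DMM against wild-type DMM were 0.60 (SE 0.61) for Cox6a2, 0.56 (0.62) for Cox7a1 and 0.97 (0.75) for Cox8b, with limma adjusted p of 0.935 for each. Against wild-type sham they were -0.27, -0.18 and 0.14 in cKO DMM, with limma adjusted p of 0.83, 0.887 and 0.93. Between wild-type DMM and wild-type sham they were -0.87, -0.74 and -0.82, with limma adjusted p of 0.917 for each. Their coefficients of variation over 15 libraries were 76.2%, 85.0% and 91.2%, against a median of 20.95% for the 80 tested nuclear subunits.

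The median log2 difference of the 20 fast muscle genes had the sign of all 3 isoforms in cKO DMM against wild-type DMM and between the wild-type groups, but in cKO DMM against wild-type sham Cox8b was on the other side of 0. That median was 0.686 in cKO DMM against wild-type DMM, -0.065 in cKO DMM against wild-type sham and -0.805 in wild-type DMM against wild-type sham, and no gene of the list passed. In bulk bone, fewer muscle fibres and less RNA per fibre cannot be told apart. Slow muscle and brown fat are also known to express muscle isoforms of complex IV. The 10 slow muscle genes, 6 of them over the filter, summed to 44.4 to 107 FPKM in cKO DMM, 41.1 to 106 in wild-type DMM and 33.4 to 220.2 in wild-type sham bone, most of it from Mb (1.73 to 147 FPKM over the libraries) and Atp2a2 (20.3 to 33.3), while Myh7 was at most 1.22 FPKM. The 7 brown fat genes, 2 of them over the filter, summed to 3.95 to 5.49 FPKM in cKO DMM, 4.16 to 5.95 in wild-type DMM and 3.24 to 4.61 in wild-type sham bone, with Dio2 at 1.75 to 4.27 FPKM and the defining gene Ucp1 at 0 to 0.0314. The part of the slow muscle list in the isoforms' values was not tested.

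**Figure D1:**
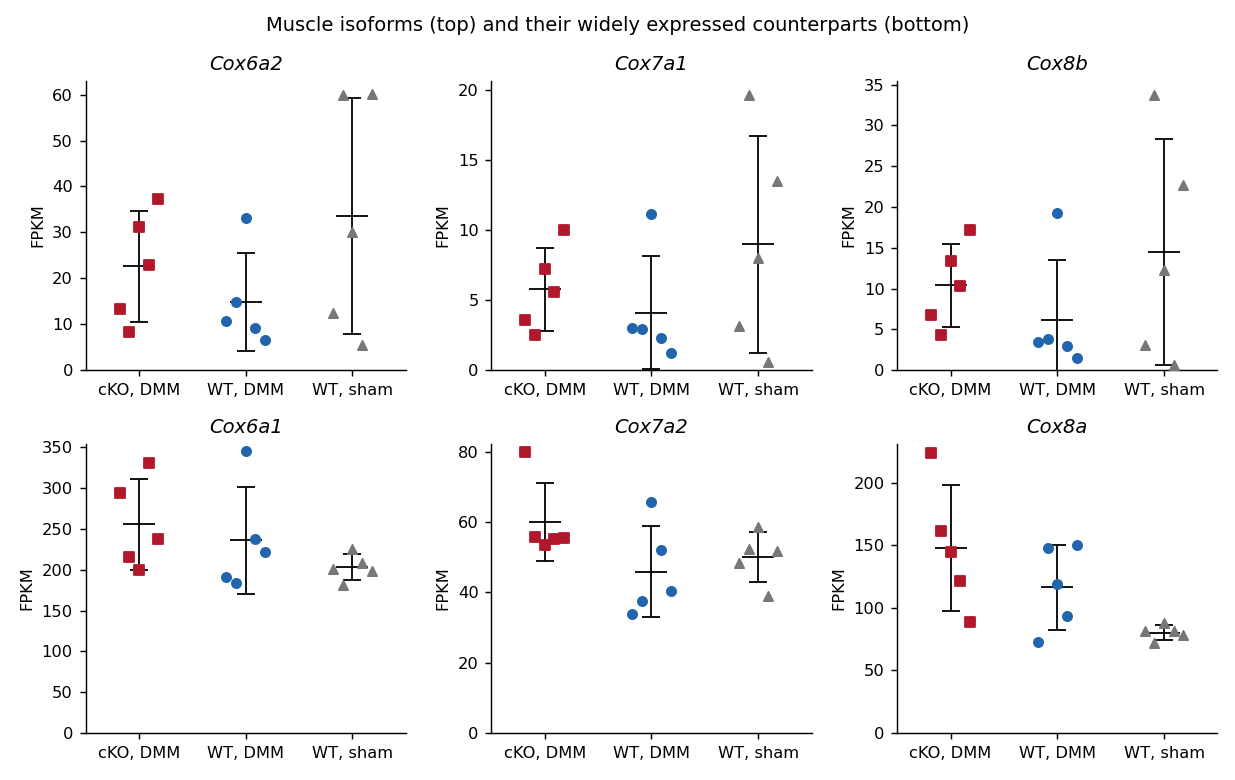
FPKM of Cox6a2, Cox7a1 and Cox8b (top row) and of Cox6a1, Cox7a2 and Cox8a (bottom row) in cKO DMM, wild-type DMM and wild-type sham bone; each point is 1 library, the long line the group mean and the bars 1 SD, cut off at 0 where the SD exceeds the mean. In each muscle isoform sham bone holds both the highest and the lowest library, and the sham values of Cox8a, 71.7 to 87.5 FPKM, lie under every cKO DMM value.

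Cox6a1, the widely expressed form of subunit VIa, was the most abundant nuclear subunit of complex IV. It had 294, 216, 199, 331 and 238 FPKM in cKO DMM, 191, 184, 346, 238 and 222 in wild-type DMM and 202, 182, 225, 209 and 198 in wild-type sham bone. The high libraries were cKO DMM replicates 1 and 4 and wild-type DMM replicate 3, the 3 that stood apart, and the groups overlapped. Cox7a2, the widely expressed form of subunit VIIa, had 79.95, 55.9, 53.5, 55.2 and 55.4 FPKM in cKO DMM against 33.9, 37.4, 65.8, 52.1 and 40.3 in wild-type DMM. The difference on the log2 scale was 0.40 (SE 0.17), with a limma adjusted p of 0.935 and an exact permutation p of 0.0873, and cKO DMM replicate 1 was well above the other libraries of its group.

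Cox8a, the widely expressed form of subunit VIII, had 223, 162, 144, 121 and 88.5 FPKM in cKO DMM and 81.8, 71.7, 87.5, 81.4 and 78.6 in wild-type sham bone. Every cKO DMM library was above every sham library, by as little as 88.5 against 87.5 FPKM. The means were 148 ± 50.4 and 80.2 ± 5.73 FPKM (SD, n = 5 each), with a log2 difference of 0.81 (SE 0.23), an exact permutation p of 0.00794 and a limma adjusted p of 0.456. Wild-type DMM bone, at 72.4, 148, 119, 93.2 and 150 FPKM, overlapped both. Without the 3 libraries that stood apart, 0.66 was left of the difference on the log2 scale (limma adjusted p = 0.683).

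The muscle isoforms held the smaller share of each pair in every library, at most 32.0%. As a share of Cox6a2 plus Cox6a1, Cox6a2 held 3.71% to 13.6% in cKO DMM, 2.92% to 8.75% in wild-type DMM and 2.53% to 24.8% in wild-type sham bone. Cox7a1 held 4.25% to 15.3%, 2.90% to 14.5% and 1.55% to 27.3% of its pair with Cox7a2, in the same order of groups. Cox8b held 2.63% to 16.2%, 0.982% to 13.9% and 0.807% to 32.0% of its pair with Cox8a. In all 3 pairs the sham libraries gave both extremes.

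Across the 15 libraries the muscle isoforms went with Ckm, the creatine kinase of muscle fibres, and their counterparts did not. Ckm had 73.5, 50.9, 325, 100.5 and 281 FPKM in cKO DMM, 115, 91.3, 216, 33.4 and 24.1 in wild-type DMM and 69.0, 456, 289, 10.6 and 398 in wild-type sham bone. On log2(FPKM + 1), Pearson's r with Ckm was 0.945 for Cox6a2, 0.950 for Cox7a1 and 0.936 for Cox8b, and Spearman's rho 0.929, 0.925 and 0.911. The permutation p of each r was 1e-05, the smallest that 100000 permutations can give, and 2e-05 after Benjamini-Hochberg adjustment over the 6 relations computed.

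Leaving out the 2 libraries with the most extreme Ckm levels, r was 0.936, 0.933 and 0.901 for Cox6a2, Cox7a1 and Cox8b, and over the 10 wild-type libraries 0.948, 0.956 and 0.945. For the counterparts r was -0.05 for Cox6a1 (adjusted permutation p = 0.855), 0.359 for Cox7a2 (0.279) and -0.229 for Cox8a (0.492). These 6 relations are across libraries that differ in their muscle RNA and show no shared control of the genes.

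**Figure D2:**
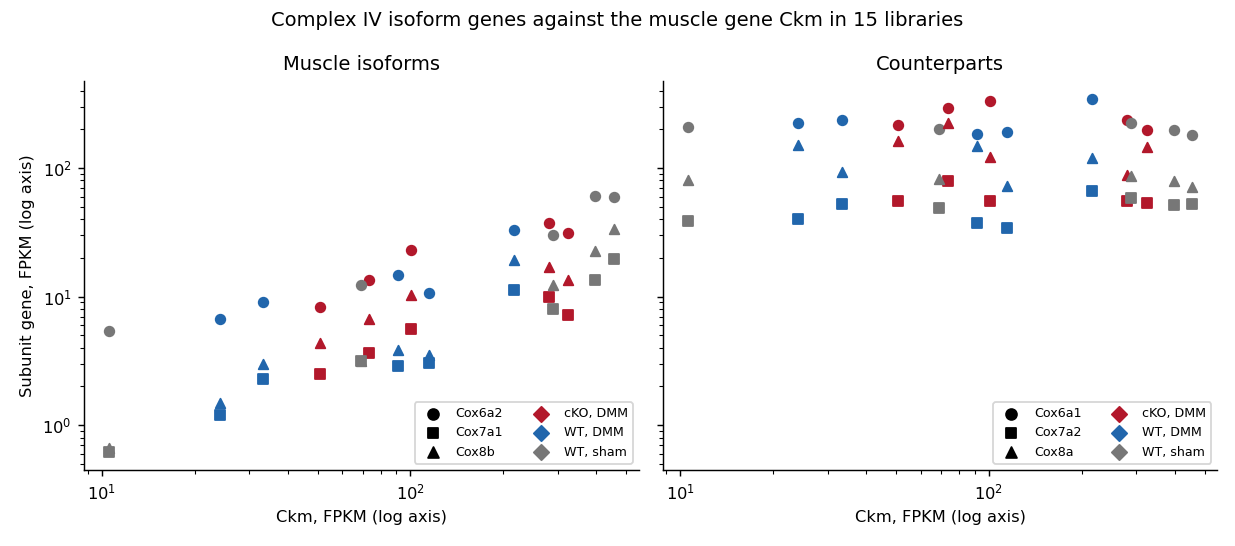
FPKM of the muscle isoforms (left) and of their counterparts (right) against FPKM of Ckm, all on log axes; each point is 1 gene in 1 of 15 libraries, its shape the gene and its colour the group. Cox6a2, Cox7a1 and Cox8b lie along a line (r of 0.945, 0.950 and 0.936), and Cox6a1, Cox7a2 and Cox8a do not (r of -0.05, 0.359 and -0.229).

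Among 13653 genes the 5 with the highest Pearson r to Cox6a2 over 15 libraries were Tpm2 (a tropomyosin, 0.987), Klhl41, Gm12224, Fitm1 and Hhatl. Those of Cox7a1 were Cox8b (0.988), Klhl41, Sh3bgr, Cox6a2 and Fitm1, and those of Cox8b were Cox7a1, Klhl41, Jsrp1, Tnni2 and Smpx. Klhl41, Jsrp1, Tnni2 and Smpx encode proteins of the contractile or membrane systems of muscle fibres. The 3 muscle isoforms had pairwise r of 0.968 to 0.988.

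Ndufa4l2 and Cox4i2 are the alternative forms of Ndufa4 and Cox4i1, known for their rise under low oxygen and, in mouse, for their expression in pericytes and smooth muscle. By symbol Ndufa4l2 falls in complex I, although the protein of its relative Ndufa4 is now placed in complex IV. Ndufa4l2 had 10.6, 9.02, 23.5, 15.4 and 12.8 FPKM in cKO DMM, 15.9, 22.8, 30.6, 14.6 and 20.4 in wild-type DMM and 4.75, 12.9, 7.81, 3.55 and 9.33 in wild-type sham bone. Every wild-type DMM library was above every sham library, while cKO DMM overlapped both.

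The Ndufa4l2 means were 20.9 ± 6.37 FPKM in wild-type DMM and 7.66 ± 3.72 FPKM in wild-type sham bone (SD, n = 5 each), a log2 difference of 1.40 (SE 0.31) with an exact permutation p of 0.00794 and a limma adjusted p of 0.216. The difference of cKO DMM from wild-type sham was 0.86 (SE 0.31, limma adjusted p = 0.469), and from wild-type DMM it was -0.54 (0.31, limma adjusted p = 0.935). When the fit also held each library's mean log2(FPKM + 1) over the 20 fast muscle genes, the difference of wild-type DMM from wild-type sham was 1.65 with an adjusted p of 0.00349 by limma. That fit passed 274 of 13653 genes (2.01%), among them 2 of the 105 members. Fits that kept the covariate and each left out 1 library were added after the data were seen. Ndufa4l2 passed in all 15 of them, at 1.55 to 1.77 and with limma adjusted p up to 0.0308. It passed under none of the alternatives without the covariate, whose limma adjusted p ran from 0.109 to 0.543. Without the 3 libraries that stood apart the difference was 1.26 (limma adjusted p = 0.375). Ndufa4l2 overlaps Shmt2 (mean 24.3 FPKM) on the opposite strand, and the 2 cannot be told apart if the counting ignored strand.

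Cox4i2 had 4.34, 5.34, 4.97, 5.52 and 3.98 FPKM in cKO DMM, 5.65, 5.72, 10.4, 7.24 and 7.63 in wild-type DMM and 2.81, 5.18, 3.53, 1.91 and 6.04 in wild-type sham bone. Every cKO DMM library was below every wild-type DMM library, and wild-type DMM overlapped sham in 1 library, sham replicate 5. The log2 difference of cKO DMM from wild-type DMM was -0.49 (SE 0.21, exact permutation p = 0.00794, limma adjusted p = 0.935). That of wild-type DMM from wild-type sham was 0.81 (SE 0.21, exact permutation p = 0.0238, limma adjusted p = 0.247).

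With the fast muscle covariate Cox4i2 was higher in wild-type DMM than in wild-type sham by 0.94 on the log2 scale, with a limma adjusted p of 0.0172, and was the other member past the threshold. Over the 15 fits that left out a library with the covariate kept, also added after the data were seen, the difference was 0.80 to 1.03. It passed in 12 of them; the exceptions were sham replicates 1, 3 and 4, with adjusted p up to 0.148. Under the alternatives without the covariate its adjusted p ran from 0.111 to 0.627. Of the 8 tested pericyte genes, 5 were higher and 3 (Kcnj8, Abcc9 and Myh11) lower in wild-type DMM than in wild-type sham, with a median log2 difference of 0.211. At an unadjusted limma p under 0.05, beside 5.50% of all genes, 2 were higher, Rgs5 by 0.50 and Cspg4 by 0.54 on the log2 scale. Their part in the Cox4i2 and Ndufa4l2 values was not tested. The summed level of 10 pericyte genes was 49.8 to 88.3 FPKM in cKO DMM, 64.3 to 92.6 in wild-type DMM and 39.1 to 83.02 in wild-type sham bone.

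The main forms did not follow them. Ndufa4 had means of 41.9 ± 6.75, 37.5 ± 12.4 and 35.9 ± 5.77 FPKM in cKO DMM, wild-type DMM and wild-type sham bone, and Cox4i1 had 121 ± 17.99, 117 ± 25.8 and 123 ± 24.8 FPKM (SD, n = 5 each). As a share of its pair, Ndufa4l2 was 17.8% to 39.6% in cKO DMM, 28.5% to 45.9% in wild-type DMM and 10.1% to 24.3% in wild-type sham bone. Cox4i2 was 3.04% to 4.79%, 4.78% to 8.11% and 1.51% to 5.60% of its pair with Cox4i1. Cox6b2, known best from testis, was 5.93% to 11.5%, 6.70% to 11.7% and 7.70% to 11.6% of its pair with Cox6b1 in the same order.

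**Figure D3:**
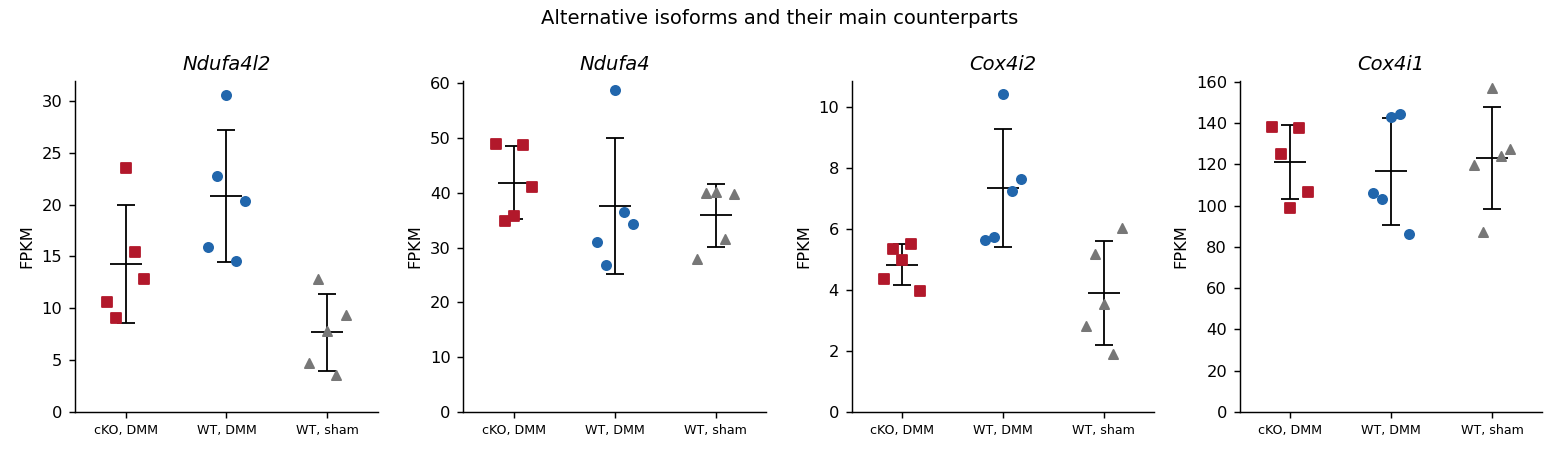
FPKM of Ndufa4l2, Ndufa4, Cox4i2 and Cox4i1 in cKO DMM, wild-type DMM and wild-type sham bone; each point is 1 library, the long line the group mean and the bars 1 SD. Ndufa4l2 lies at 14.6 to 30.6 FPKM in wild-type DMM and at 3.55 to 12.9 in sham bone, and the 2 main forms overlap between all groups.

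The nuclear subunits as a class were a little higher in the knockout than in wild-type DMM bone, with no single gene past the test. In cKO DMM against wild-type DMM the median log2 difference of the 80 tested nuclear subunits was 0.151, beside -0.017 for all tested genes, and 78 of 80 were above 0 where 45.1% of all genes were. Against wild-type sham the median in cKO DMM was 0.162, beside -0.0104, with 75 of 80 above 0 (47.9% of all genes). With rescaling to genes outside the mitochondrial genome it was 0.099, beside -0.0604 for all genes. With the level of red cell genes as a covariate it was 0.09, beside -0.0076. The rescaling gave 0.094 in cKO DMM against wild-type DMM, beside -0.0655 for all genes. Its sums still held the near-identical copies of mitochondrial genes that lie on chromosome 1. Between the wild-type groups, DMM against sham, the median of the nuclear subunits was 0.008, beside 0.0019, with 45 of 80 above 0 (50.4%). With median-of-ratios scaling it was -0.007, beside -0.0116. These counts describe genes that move together across libraries (median pairwise r 0.788) and carry no test.

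These medians moved with the 3 libraries that stood apart. Without them the median was 0.116 in cKO DMM against wild-type DMM, 0.009 in cKO DMM against wild-type sham and -0.117 in wild-type DMM against wild-type sham. Leaving out single libraries, the median in cKO DMM against wild-type DMM was 0.089 without wild-type DMM replicate 2, 0.096 without cKO DMM replicate 1, 0.1 without cKO DMM replicate 4 and 0.274 without wild-type DMM replicate 3. Against wild-type sham the median in cKO DMM was 0.093 without cKO DMM replicate 4, and in wild-type DMM against wild-type sham it was -0.117 without wild-type DMM replicate 3, -0.035 without sham replicate 1 and -0.023 without sham replicate 4.

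The 3 libraries were also high in other short nuclear transcripts. Their mean log2(FPKM + 1) over the nuclear subunits was 5.35 to 5.50, against 4.77 to 5.11 in the other 12, and over 78 ribosomal protein genes 7.41 to 7.55 against 6.83 to 7.19. The 80 subunits have a median transcript length of 693.5 bases, against 2093 for the 11843 tested protein-coding genes. Over those 11843 genes the difference between the 3 and the 12 libraries went with length, at a Spearman rho of -0.477 across genes, and at -0.501 among the 80 subunits. The 13 mitochondrially encoded members are also short, at a median of 784 bases, but only 2 of them were higher in the 3 libraries. Their median log2 difference there was -0.578, with a Spearman rho of 0.016 against length. The part of length in the subunits' difference was not tested.

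The difference between complexes was not tested. Between cKO DMM and wild-type DMM they were 0.149 for 38 subunits of complex I, 0.088 for 4 of complex II, 0.157 for 9 of complex III, 0.127 for 13 of complex IV and 0.175 for 16 of complex V. Between cKO DMM and wild-type sham they were 0.148, 0.076, 0.142, 0.180 and 0.185, and in wild-type DMM against wild-type sham 0.024, -0.046, 0.003, 0.002 and 0.008, in the same order of complexes. Complex II, all nuclear, had the smallest median in cKO DMM against wild-type DMM.

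**Figure D4:**
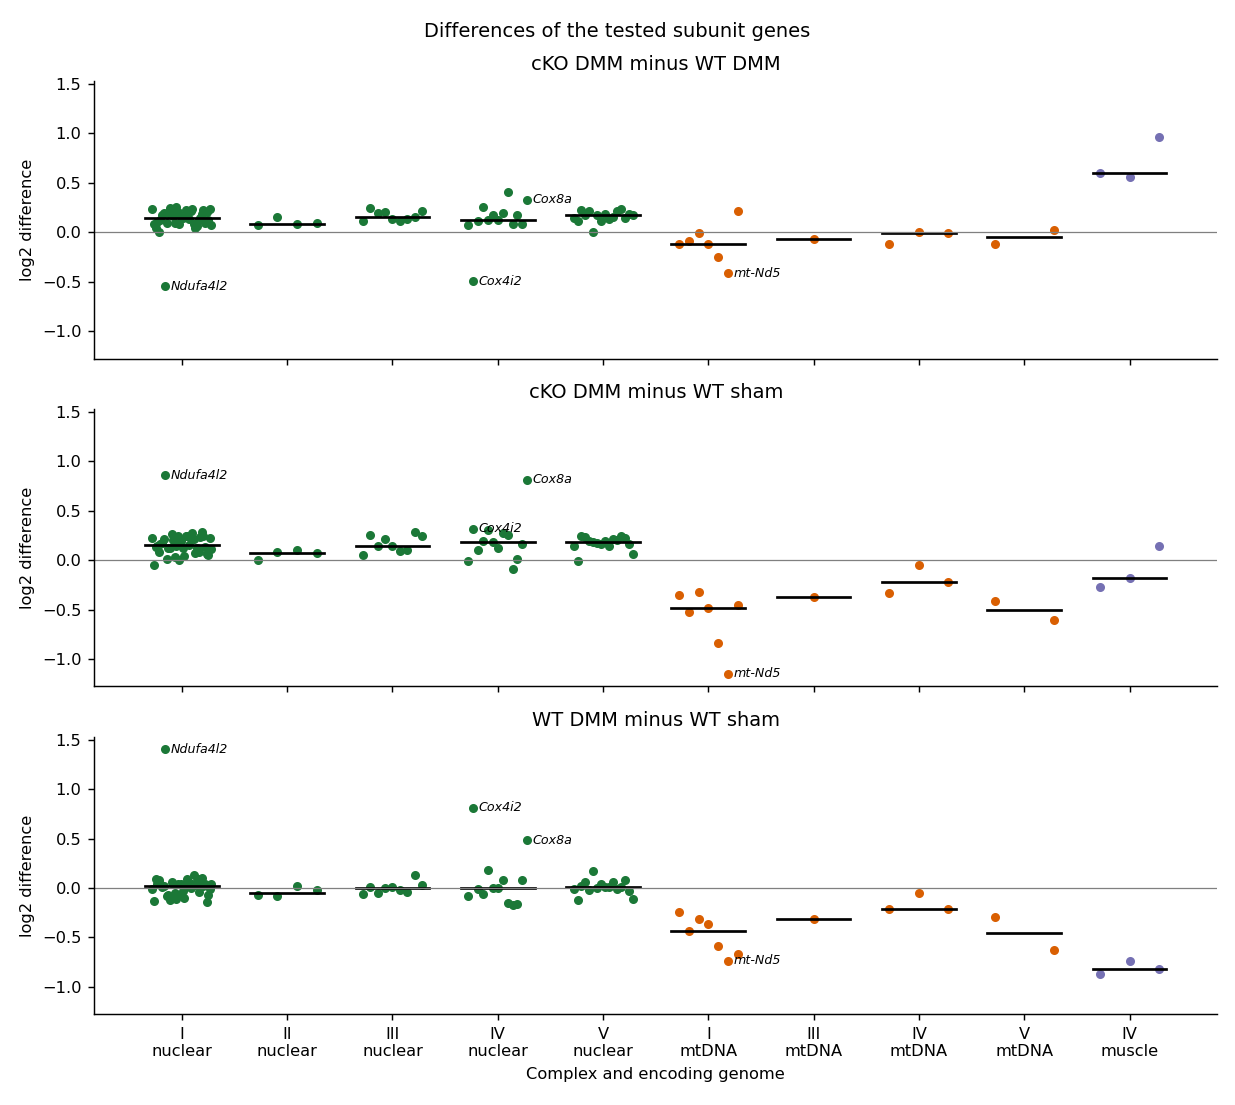
Log2 difference of each tested subunit gene (points, vertical axis) by complex and encoding genome (horizontal axis) in the 3 comparisons; black lines are class medians, the grey line is 0, and assembly factors and Atp5s are not drawn. The nuclear subunits of complexes I to V lie mostly above 0 in cKO DMM against wild-type DMM, the mitochondrially encoded ones mostly below it, and no point passed the test.

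In complex I, the NADH dehydrogenase, nuclear levels ran from Ndufb2 at 3.06 FPKM to Ndufb11 at 73.4 FPKM in the mean over 15 libraries, around a median of 19.84. Both are accessory subunits of the membrane arm. Ndufb11 had 98.6, 67.2, 62.7, 105 and 76.0 FPKM in cKO DMM, 53.7, 60.8, 95.6, 73.2 and 70.1 in wild-type DMM and 59.2, 70.1, 77.2, 60.4 and 71.8 in wild-type sham bone. Its highest libraries were again the 3 that stood apart, and the groups overlapped.

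Ndufa7, an accessory subunit, was the complex I member with the smallest p in cKO DMM against wild-type DMM. It had 20.3, 23.3, 16.9, 19.5 and 15.6 FPKM in cKO DMM against 14.5, 14.5, 19.3, 15.2 and 15.8 in wild-type DMM. The log2 difference was 0.25 (SE 0.11, exact permutation p = 0.0714, limma adjusted p = 0.935), and the groups overlapped. Ndufa10 went its own way among the subunits of complex I, with a median r of -0.04 to the other nuclear subunits; wild-type DMM differed from wild-type sham by -0.13 on the log2 scale (SE 0.07, limma adjusted p = 0.858).

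In complex II, the succinate dehydrogenase, levels ran from Sdhc (25.0 FPKM), a membrane anchor, to Sdhd (72.6), the other anchor. Sdhd was the steadiest of all members, at a coefficient of variation of 6.14%, with 86.2, 72.1, 70.8, 76.5 and 72.4 FPKM in cKO DMM, 67.6, 69.3, 72.7, 72.2 and 71.3 in wild-type DMM and 69.4, 69.5, 74.9, 69.8 and 74.2 in wild-type sham bone. Sdha, the flavoprotein, varied by 6.32% and had means of 51.8 ± 3.36, 49.1 ± 2.57 and 51.8 ± 3.51 FPKM in cKO DMM, wild-type DMM and wild-type sham bone (SD, n = 5 each). Sdhb, the iron-sulphur subunit, had log2 differences of 0.16 (SE 0.13) in cKO DMM against wild-type DMM and of -0.08 (0.13) in wild-type DMM against wild-type sham.

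In complex III, the cytochrome bc1 complex, levels ran from Uqcrq (26.5 FPKM) to Uqcr10 (79.7), both small subunits. Uqcr10 had 97.6, 66.6, 82.2, 107 and 90.0 FPKM in cKO DMM, 64.2, 57.6, 114, 76.0 and 68.9 in wild-type DMM and 64.2, 79.0, 90.0, 58.2 and 80.3 in wild-type sham bone. Uqcrh, the hinge protein, had means of 87.2 ± 24.1, 79.5 ± 29.0 and 69.8 ± 8.46 FPKM in that order of groups (SD, n = 5 each). Cyc1, cytochrome c1, had log2 differences of 0.11 (SE 0.08) in cKO DMM against wild-type DMM and -0.06 (0.08) in wild-type DMM against wild-type sham. The subunits of complex III were the most alike across libraries, at a median pairwise r of 0.892, against 0.849 in complex I, 0.754 in complex V, 0.669 in complex II and 0.510 in complex IV.

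In complex IV, cytochrome c oxidase, levels of the 13 tested nuclear subunits ran from Cox4i2 (5.35 FPKM) to Cox6a1 (231.5). Cox7a2l, known for its part in joining complexes III and IV, had 105, 80.9, 50.8, 114 and 56.4 FPKM in cKO DMM, 45.1, 79.8, 113, 89.6 and 56.6 in wild-type DMM and 79.2, 81.6, 90.0, 79.4 and 82.3 in wild-type sham bone. Its sham libraries were close together and both DMM groups spread on either side of them. Cox5b, which binds zinc, had a log2 difference of 0.26 (SE 0.16, limma adjusted p = 0.935) in cKO DMM against wild-type DMM, and Cox7b one of -0.16 (0.12, 0.917) in wild-type DMM against wild-type sham.

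In complex V, the ATP synthase, levels ran from Atp5g1 (11.6 FPKM), one of 3 genes for the same ring subunit, to Atp5a1 (186), the alpha subunit. Atp5a1 had 229, 188, 186, 195 and 198 FPKM in cKO DMM, 170, 170, 193, 183 and 180 in wild-type DMM and 173, 186, 186, 173 and 183 in wild-type sham bone. Every cKO DMM library was above every sham library, the closest at 186.4 against 185.9 FPKM. The means were 199 ± 17.4 FPKM in cKO DMM and 180 ± 6.52 in wild-type sham bone (SD, n = 5 each), a log2 difference of 0.14 (SE 0.07, limma adjusted p = 0.473), and 0.08 (limma adjusted p = 0.808) without the 3 libraries that stood apart. Atp5c1, the gamma subunit, had 117, 79.1, 86.8, 89.7 and 82.3 FPKM in cKO DMM and 69.8, 83.1, 76.7, 68.1 and 83.1 in wild-type sham bone, a log2 difference of 0.24 (SE 0.11, exact permutation p = 0.0556, limma adjusted p = 0.469). Atp5b, the beta subunit, varied by only 7.15% and correlated least with the other subunits, at a median r of -0.14. In wild-type DMM against wild-type sham the log2 difference was 0.17 (SE 0.12) for Atp5f1, subunit b of the peripheral stalk, -0.12 (0.08) for Atp5b and -0.12 (0.09) for Atp5o, which joins the stalk to the catalytic head, and none passed. Atp5s, the coupling factor, differed by -0.01 (SE 0.11) in cKO DMM against wild-type DMM.

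The 8 Ndufaf assembly factors were expressed at 1.57 (Ndufaf2) to 11.2 FPKM (Ndufaf8) in the mean over 15 libraries. Ndufaf6 had 3.80, 2.76, 3.07, 3.40 and 3.36 FPKM in cKO DMM, against 2.23, 2.84, 2.89, 2.24 and 2.84 in wild-type sham bone. The difference was 0.25 on the log2 scale (SE 0.10, exact permutation p = 0.0317, limma adjusted p = 0.469), with 1 cKO DMM library inside the sham range. Ndufaf1 differed by 0.11 (SE 0.06) in cKO DMM against wild-type DMM and Ndufaf4 by 0.19 (0.16) in wild-type DMM against wild-type sham. The 8 had a median log2 difference of 0.136 in cKO DMM against wild-type DMM, 0.175 in cKO DMM against wild-type sham and 0.057 in wild-type DMM against wild-type sham.

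The 13 mitochondrially encoded members were mostly lower in each comparison, again with no gene past the test. The nuclear subunits were mostly higher in cKO DMM against either wild-type group. Between the wild-type groups 45 of 80 were higher, where 50.4% of all genes were. The median log2 difference of the 13 was -0.093 in cKO DMM against wild-type DMM (3 of 13 above 0), -0.414 in cKO DMM against wild-type sham (0 of 13) and -0.312 in wild-type DMM against wild-type sham (0 of 13). The 13 mRNAs are cut from the same few long transcripts and moved together, at a median pairwise r of 0.843. Their median r with nuclear subunits was -0.165, and with the muscle isoforms 0.646. With the fast muscle covariate their median log2 difference was -0.113 in wild-type DMM against wild-type sham, where that of the fast muscle genes was -0.805, and -0.245 in cKO DMM against wild-type DMM, where that of the fast muscle genes was 0.686.

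The direction in cKO DMM against wild-type DMM turned without the 3 libraries that stood apart, to 0.179, and without cKO DMM replicate 1, to 0.075. There it was -0.235 without cKO DMM replicate 3, -0.197 without cKO DMM replicate 5 and -0.035 without cKO DMM replicate 4. Against wild-type sham the median in cKO DMM was -0.135 without the 3 libraries, -0.236 without cKO DMM replicate 1, -0.270 without sham replicate 2 and -0.224 without sham replicate 5. Between wild-type DMM and wild-type sham it was -0.292 without wild-type DMM replicate 3, -0.177 without sham replicate 2, -0.157 without sham replicate 5 and -0.547 without sham replicate 4.

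By complex, the 7 of complex I had medians of -0.115, -0.480 and -0.435 in cKO DMM against wild-type DMM, cKO DMM against wild-type sham and wild-type DMM against wild-type sham. mt-Cytb, cytochrome b of complex III, had -0.067, -0.376 and -0.309. The 3 of complex IV had -0.004, -0.217 and -0.213, and the 2 of complex V -0.048, -0.508 and -0.460. In the mean over 15 libraries the complex I genes had 2929 (mt-Nd1), 1868 (mt-Nd4), 1199 (mt-Nd2), 704 (mt-Nd5), 584 (mt-Nd4l), 492 (mt-Nd3) and 399.5 FPKM (mt-Nd6). mt-Cytb had 3130 FPKM, the complex IV genes 8453 (mt-Co1), 3989 (mt-Co2) and 3426 FPKM (mt-Co3), and the complex V genes 1202 (mt-Atp8) and 655 FPKM (mt-Atp6). mt-Co2 was the steadiest between groups, at log2 differences of 0.00, -0.05 and -0.05 in the same order of comparisons, and mt-Nd4l was second to mt-Nd5 in cKO DMM against wild-type sham, at -0.84 (SE 0.48, limma adjusted p = 0.473).

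mt-Nd5, a proton-pumping subunit of complex I, was the mitochondrially encoded member farthest down in cKO DMM against wild-type sham. It had 171, 531, 889, 244 and 646 FPKM in cKO DMM, 904, 902, 237, 492 and 566 in wild-type DMM and 859, 1540, 692, 566 and 1326 in wild-type sham bone. The log2 difference of cKO DMM from wild-type sham was -1.15 (SE 0.47, exact permutation p = 0.0635, limma adjusted p = 0.469), and the groups overlapped. The lowest 3 libraries were those that stood apart, and without them the difference was -0.46 (limma adjusted p = 0.813). mt-Nd6, on the other strand of the genome and overlapping mt-Nd5, had the lowest FPKM of the 13 in these libraries of poly(A)-selected RNA.

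mt-Co1, the catalytic subunit of complex IV, was the most abundant member, with means of 7600 ± 2038 FPKM in cKO DMM, 8099 ± 1334 in wild-type DMM and 9658 ± 3000 in wild-type sham bone (SD, n = 5 each). mt-Cytb had means of 2822 ± 1019, 2818 ± 293 and 3752 ± 1597 FPKM in the same order. mt-Atp8 had means of 1134 ± 743, 994 ± 518 and 1478 ± 747 FPKM, with its low libraries at 327 and 336 FPKM among those that stood apart. The spread within sham bone was as wide as the differences between groups.

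Together the 13 mitochondrial genes held 4.36% to 9.13% of the FPKM sum in cKO DMM, 5.82% to 7.94% in wild-type DMM and 4.93% to 11.8% in wild-type sham bone. The 80 nuclear subunits held 0.851% to 1.17%, 0.781% to 1.09% and 0.790% to 0.875%. The ratio of the 2 sums was 3.72 to 10.5 in cKO DMM, 5.35 to 10.1 in wild-type DMM and 6.17 to 13.6 in wild-type sham bone. The libraries with the lowest ratios were the 3 that stood apart. Near-identical copies of 7 of the 13 genes lie on chromosome 1, with mean levels up to 4005 FPKM for the copy of mt-Co2. These copies were counted neither in the members' levels nor among the 13 genes in these shares and ratios. The ratio of copy to member was 1.0 in every library for mt-Co2 and mt-Co3. Where reads were split between member and copy, the shares and ratios are too low, and how such reads were counted is not known.

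**Figure D5:**
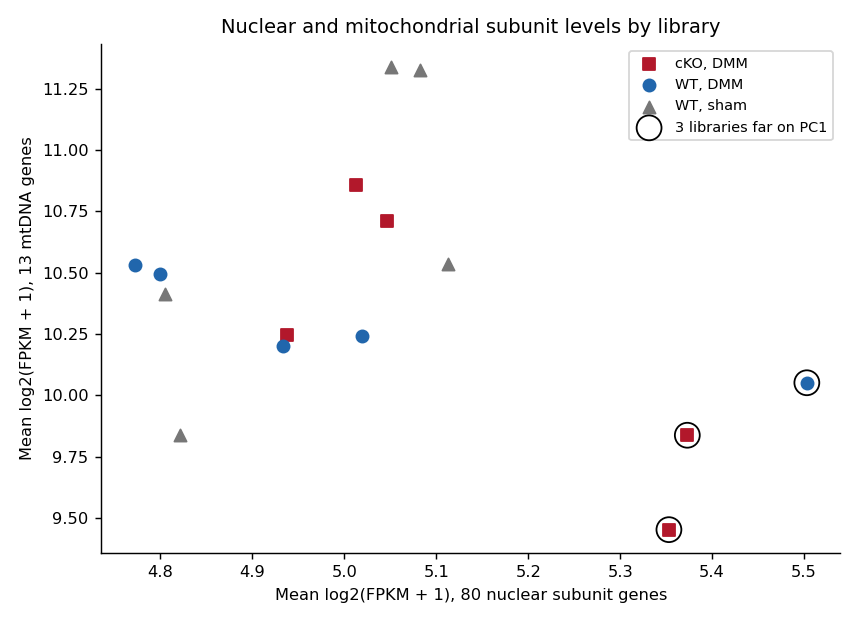
Mean log2(FPKM + 1) over the 80 nuclear subunits (horizontal axis) against that over the 13 mitochondrially encoded members (vertical axis) for the 15 libraries, marked by group. The 3 circled libraries, which stand apart on the first principal component, lie at 5.35 to 5.50 on the nuclear axis, beyond the 4.77 to 5.11 of the others, and at 9.45 to 10.1 on the mitochondrial axis.

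Some levels are uncertain because near-identical copies could share reads, and no source used here says how reads with several matches were counted. On chromosome 1, 7 mitochondrial members have copies that are themselves listed with a level: the ratio of copy to member was 1.00 for mt-Co2, mt-Co3 and mt-Nd4l, 0.991 for mt-Nd3, 0.489 for mt-Nd4, 0.403 for mt-Co1 and 4.98 for mt-Atp6. Among nuclear members, 10 (Atp5f1, Atp5g1, Atp5g2, Atp5h, Atp5l, Cox7c, Ndufa12, Ndufab1, Ndufb4 and Ndufs5) have pseudogenes at 10% of their own level or more, such as Ndufb4c at 3.81 times Ndufb4 and Gm10221 at 2.87 times Atp5l.

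Other genes of mitochondrial function showed no passing gene in any list. At an unadjusted limma p under 0.05, 1.11% of all genes were higher in cKO DMM against wild-type DMM. Against wild-type sham 5.84% were higher and 4.64% lower in cKO DMM. In wild-type DMM against wild-type sham 5.50% were higher and 1.43% lower. The counts below are to be read beside these shares. Of 40 tested genes for assembly factors of the complexes, 1 was higher at an unadjusted p under 0.05 in cKO DMM against wild-type DMM, the copper chaperone gene Cox17, with a log2 difference of 0.31. Between cKO DMM and wild-type sham 2 were higher, Cmc1 for complex IV (0.33) and Tmem70 for complex V (0.58). Of 20 genes that express the mitochondrial genome, 2 were higher and 1 lower in cKO DMM against wild-type sham, namely Slirp, which binds mitochondrial mRNA (0.33), Ssbp1, which binds single-stranded mitochondrial DNA (0.21), and Fastkd3 (-0.27). Of 8 tested biogenesis regulators 1, Gabpb1, was higher in cKO DMM against wild-type sham (0.44); Ppargc1a, which drives mitochondrial biogenesis, was under the filter, at 0.0519 to 0.587 FPKM. Of 16 citric acid cycle genes 1, Idh3a, was lower in wild-type DMM against wild-type sham (-0.245), and of 12 genes for electron carriers and transport 0 reached an unadjusted p of 0.05. Of 10 hypoxia genes 2 were higher in cKO DMM against wild-type sham, the glucose transporter Slc2a1 (0.36) and Ankrd37. In wild-type DMM against wild-type sham, in the fit without the fast muscle covariate, 0 of the 10 reached an unadjusted limma p of 0.05. Their median log2 difference there was 0.112. The part of low oxygen in the Cox4i2 and Ndufa4l2 values was not tested.

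Markers of the cells of bone and its surroundings also varied between groups, although none passed the test. At an unadjusted limma p under 0.05, 5.50% of all genes were higher in wild-type DMM against wild-type sham. In cKO DMM 2.15% were lower against wild-type DMM and 5.84% higher against wild-type sham. In wild-type DMM against wild-type sham 8 of 10 fibroblast genes (median log2 difference 1.20), 4 of 9 osteocyte genes (0.366), 4 of 10 osteoblast and bone matrix genes (0.498) and 4 of 9 osteoclast genes (0.333) were higher at an unadjusted p under 0.05. At any p, 7 of the 9 osteocyte genes were higher and 2 lower. Mean FPKM in wild-type DMM and wild-type sham was 43.7 and 50.0 for Dmp1, and 23.4 and 24.9 for Sost. In cKO DMM against wild-type DMM 3 of the 9 osteocyte genes, Sost, Phex and Dkk1, were lower (median of the 9, -0.322), and in cKO DMM against wild-type sham 7 of the 10 fibroblast genes were higher (0.974). The part of these cells in the subunits' differences was not tested. Erythroid, neutrophil and B cell genes, lists of marrow cells, had 0 genes at an unadjusted p under 0.05 in any comparison. Of 8 macrophage genes, 2 were lower at that limma p in cKO DMM against wild-type sham, beside 4.64% of all genes. At any p, 7 of the 8 were lower there and 1 was higher.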

How the data were processed

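RNA-seq of tibial subchondral bone was analysed in 15 libraries, 5 in each of 3 groups, from the FPKM that the authors deposited per gene; the tool behind these FPKM is not given in the sources used. Per the submitters' processing notes, the tools were FastQC 0.11.9, Trimmomatic 0.39, STAR 2.7.10a and featureCounts 2.0.3, with the builds GRCm39 and mm39. Per the labels' protocols, bone was ground frozen, RNA was selected by poly(A), and libraries marked strand with dUTP. No raw counts were used and absolute depth is unknown, so no counting intervals are given.

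The members and gene lists were chosen with earlier results of these data known, and the pericyte and hypoxia lists after these data were seen. Members were taken by symbol, and biotype and chromosome from GENCODE vM21 (GRCm38), a build other than that of the files, so no coordinates were carried over. Genes that reached 1 FPKM in 5 or more of the 15 libraries were tested (13653) with limma 3.58.1 in R 4.3.3 on log2(FPKM + 1), with a mean for each group, an intensity trend and Benjamini-Hochberg adjustment. On this scale the changes of low genes are understated. Single values were compared by exact two-sided permutation over 252 arrangements (SciPy 1.17.1), and correlations by 100000 permutations. Promoters were read from a RefSeq table (GRCm38.p6), which had an entry for 74 of 94 nuclear symbols. The fit was tested on simulated data.

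Named members are the isoform pairs, the mitochondrial genes, the extremes of level, and per complex and comparison up to 2 members per direction with the smallest p. Gene lists name up to 3 tested members with the smallest p; the remaining marker genes and Ankrd37 were named after their values were seen. Of the listed symbols 6 were not matched. The alternatives were the pseudocount, the filter, the scaling, the samples in the fit, a replicate block, covariates for fast muscle and erythroid genes, and each library left out. The fits that left out a library while keeping the fast muscle covariate were added after the data were seen.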

Additional observations from a re-analysis of the deposited data

Results flagged for a closer look

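In 8 of 129 member and group combinations examined, 1 library lay apart from the other 4 of its group by more than Dixon's 95% critical value (0.71 of the range); chance gives about 1 in 20. WT DMM replicate 3 was high in Atp5l at 22.09 FPKM (the others 11.48 to 13.59), in Sdhb at 44.55 (30.34 to 33.44), in Sdhc at 33.65 (21.04 to 24.01) and in Uqcrq at 44.99 (19.36 to 23.93). It is 1 of the 3 libraries that stood apart on the first principal component, and these 4 values are read beside that. cKO DMM replicate 1, another of the 3, was high in Atp5a1 at 229.2 FPKM (186.4 to 197.5) and in Cox7a2 at 79.95 (53.53 to 55.85). WT DMM replicate 4 was high in the assembly factor Ndufaf4 at 4.466 FPKM (1.45 to 1.826) and low in mt-Co3 at 2615 FPKM (3209 to 3397).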

How the results depend on the processing

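Of 1745 alternative values of 74 single results, 1668 kept their direction and side of the threshold, 29 newly passed, 0 lost a call and 48, in 16 results, changed sign. All 29 were values of Ndufa4l2 or Cox4i2 in WT DMM against WT sham with the fast muscle covariate. Most came from the fits added after the data were seen. The numbers of genes called moved most. In cKO DMM against WT DMM 2 genes passed with no filter. Against WT sham, 7 passed in cKO DMM with no filter, 7 without the 3 libraries that stood apart, 20 with the fast muscle covariate and 1 with the replicate number as a block. In WT DMM against WT sham 2 passed with no filter, 1 with rescaling to genes outside the mitochondrial genome, and 274, of which 2 members, with the fast muscle covariate. Leaving out each library gave 1 to 2, 2 to 8 and 0 to 2 genes in these comparisons, and 0 members in each. The labels' replicate numbers were not taken to pair samples, since among 15 same-numbered pairs between groups the correlations of deviations ran from -0.46 to 0.4 and only 6 exceeded 0.1. In WT DMM with WT sham, replicates 1 to 4 had 0.13, 0.103, 0.4 and 0.306, each highest with its own number, and replicate 5 had -0.237, a hint from the data and not the design. The block changed no other call. That rescaling moved the median of all genes to -0.0655 in cKO DMM against WT DMM, where the nuclear subunits had 0.094; the cause of the other shifts was not tested.

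Some signs were unstable, all in values that did not pass. In cKO DMM against WT DMM, without the 3 libraries, mt-Cytb was 0.238, mt-Co1 0.03 and mt-Atp6 0.15, and Atp5s was 0.018 with median-of-ratios scaling and 0.006 with the erythroid covariate. Leaving out single libraries they ran from -0.211 to 0.075, -0.235 to 0.018, -0.283 to 0.055 and -0.091 to 0.049. In cKO DMM against WT sham, without the 3 libraries, Sdhc was -0.025 and mt-Atp8 0.326; Sdha was 0.017 with median-of-ratios scaling and 0.004 with the fast muscle covariate, and Cox8b -0.102 with the erythroid covariate. Single omissions gave -0.037 to 0.031 for Sdha, -0.761 to 0.052 for Cox6a2, -0.718 to 0.201 for Cox7a1 and -0.482 to 0.614 for Cox8b. In WT DMM against WT sham, without the 3 libraries, Sdhc was -0.095, Uqcrh -0.059, Uqcrq -0.185 and Atp5l -0.077, and with the erythroid covariate Sdhc was -0.039 and Uqcrq -0.067. Single omissions gave -0.02 to 0.269 for Ndufaf4, -0.095 to 0.068 for Sdhc, -0.059 to 0.223 for Uqcrh, -0.185 to 0.109 for Uqcrq and -0.077 to 0.145 for Atp5l. Cox6a1 against Ckm had r = 0.013 with median-of-ratios scaling. Without raw counts, counting error cannot be separated from the spread between libraries.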
